A study of Homo sapiens with 16 samples.

Results

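HIF1A-null HCT116 cells were compared with shCDK8 HCT116 cells after 24 h at 1% oxygen (hypoxia), to see how a line without the hypoxia factor differs from a line depleted of a Mediator kinase. The comparison used 4 of the study's 16 libraries of poly(A) RNA, 2 of HIF1A-null and 2 of shCDK8 cells, chosen by the line and condition in their column names. HCT116 is an established human colorectal carcinoma line. HIF1A-null cells had HIF1A genetically deleted, and the labels give them no shRNA. shCDK8 cells carried a stable shRNA against CDK8, and the labels give them no change at HIF1A. The same lines at 21% oxygen (normoxia, 2 libraries each) and hypoxic cells with a stable non-targeting shRNA (shNT, 2 libraries) are given beside them. The remaining libraries entered the fit but are not described. They came from normoxic shNT cells and from cells with an shRNA against TIP60 (shTIP60) in both conditions. Each alteration was represented by a single line, so line, clone and vector effects cannot be told apart from loss of the target. The libraries of a group were described as independent biological replicates. They are called A and B here, after the first and second run of library numbers, and n = 2 in every group. In bulk RNA, fewer cells of a type and less RNA per cell cannot be told apart.

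The total counts of the HIF1A-null hypoxia libraries were 31216705 and 35632826, and those of the shCDK8 hypoxia libraries were 38377063 and 37699048. The Pearson correlation between libraries A and B across genes, which are not independent replicates, was 0.9917 in HIF1A-null and 0.9964 in shCDK8 hypoxia. Levels are given as CPM, the reads of a gene relative to the normalised total of its library, and are compared between lines and not between genes. Over the libraries, 3 counts, taken as the floor of detection, equalled 0.0716 to 0.112 CPM. Differences are log2 fold changes of HIF1A-null over shCDK8 ± SE, and a gene is said to be higher or lower, to rise or to fall, where edgeR's adjusted p was below 0.05. EPCAM, an adhesion protein of simple epithelia, was at 150.4 and 166.5 CPM in HIF1A-null and 147.9 and 148.8 CPM in shCDK8 hypoxia libraries. Of 20 epithelial and intestinal markers 15 were high enough to test, as were 11 of 18 mesenchymal markers. Among blood and endothelial markers, 9 of 15 were too low to test.

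Hypoxia-inducible factor 1 is a dimer of HIF1A and ARNT. With oxygen present, the EGLN prolyl hydroxylases mark HIF1A for destruction through VHL. In hypoxia HIF1A accumulates and the dimer binds sites with an ACGTG core near genes of glucose uptake, glycolysis, acid export and blood vessel growth. CDK8 is the kinase of a detachable module of the Mediator complex, which it forms with cyclin C, MED12 and MED13 or with their paralogs. Mediator passes signals from DNA-bound factors to RNA polymerase, and CDK8 has been described as a cofactor of HIF1A in colorectal cells.

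Of the targeted genes, CDK8 separated the lines in hypoxia and HIF1A did not. CDK8 (chromosome 13, 26828241 to 26995119, GRCh37) had 31.2 and 35.1 CPM in HIF1A-null and 5.84 and 5.45 CPM in shCDK8 libraries, beside 27.9 and 28.3 CPM in shNT. Both HIF1A-null libraries lay above both shNT libraries, and the log2 fold change over shCDK8 was 2.55 ± 0.14 (adjusted p = 2.35e-09). Reads assigned to HIF1A (chromosome 14, 62162231 to 62214977, GRCh37) stood at 40.1 and 57.6 CPM in HIF1A-null and 53.4 and 59.8 CPM in shCDK8 hypoxia libraries, with ranges that overlapped and a log2 fold change of -0.21 ± 0.15 (adjusted p = 0.274). In normoxia the same gene separated the lines widely, with 13 and 14.1 CPM in HIF1A-null against 110.5 and 113 CPM in shCDK8 (log2 -3.04 ± 0.16, adjusted p = 1.79e-09). Without HIF1A-null library A the hypoxia value was 0.03 (adjusted p = 0.905), and without HIF1A-null library B it was -0.49 and passed the test (adjusted p = 0.0192). Its level was higher in hypoxia than in normoxia within HIF1A-null cells (log2 1.85 ± 0.15) and lower within shCDK8 cells (-0.98 ± 0.15). Counts per gene do not show which exons these reads came from, and the labels do not give the deleted part, so the HIF1A level in hypoxia does not check the HIF1A-null label.

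The other members of the kinase module differed less than CDK8. CDK19, the paralog that can take the place of CDK8, had 21.9 and 29.9 CPM in HIF1A-null and 42.6 and 42.1 CPM in shCDK8 libraries, and its log2 fold change of -0.71 ± 0.23 (adjusted p = 0.02) no longer passed the test without HIF1A-null library A or without either shCDK8 library (log2 -0.51 to -0.72, adjusted p from 0.0652 to 0.151). In shNT hypoxia libraries CDK19 was at 38.7 and 50 CPM. MED12L, a paralog of the CDK8 activator MED12, was at 17.6 and 22.2 against 8.37 and 8.27 CPM (log2 1.26 ± 0.19), and MED13L, a paralog of MED13, was also higher (0.93 ± 0.15). MED12 was lower (-0.50 ± 0.15), a call lost without HIF1A-null library A (adjusted p = 0.0895) or shCDK8 library B (0.0686). CCNC, which encodes cyclin C, and MED13 had log2 fold changes of 0.08 and 0.15 and did not pass the test. Of 26 core Mediator subunits, 2 were higher and 8 lower, with a median log2 fold change of -0.11. Over all genes tested 19.0% were higher and 21.3% lower, 40.3% together, so the list was called about as often as other genes. MED8 was the higher subunit with the larger difference, at 99.1 and 108.9 CPM in HIF1A-null and 37.3 and 49.1 CPM in shCDK8 libraries (log2 1.27 ± 0.16).

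Across all genes, 6259 of 15520 tested differed between the lines in hypoxia (40.3%), 2947 higher (19.0%) and 3312 lower (21.3%) in HIF1A-null. Both HIF1A-null libraries lay above both shCDK8 libraries for 34.4% of genes and below both for 35.9%. The split between directions rested on the scaling: scaled by library totals alone, the median of all genes moved to -0.14, and 2098 genes were higher and 4244 lower. In normoxia 3711 genes differed (23.9%), 1937 higher (12.5%) and 1774 lower (11.4%). These shares of all genes are the background for the counts of list members given below. The normoxia and hypoxia comparisons share no library. The 1127 genes higher in both were 38.2% of those higher in hypoxia and 58.2% of those higher in normoxia, and the 1165 genes lower in both were 35.2% and 65.7% of the corresponding lists. Another 27 genes were higher in hypoxia and lower in normoxia, and 72 were lower in hypoxia and higher in normoxia. The hypoxia response itself, hypoxia over normoxia within a line, differed between the lines for 1800 genes (11.6%), being higher in HIF1A-null for 696 (4.48%) and lower for 1104 (7.11%). Without shCDK8 hypoxia library A, 4112 genes differed in hypoxia and 755 in response.

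**Figure D1:**
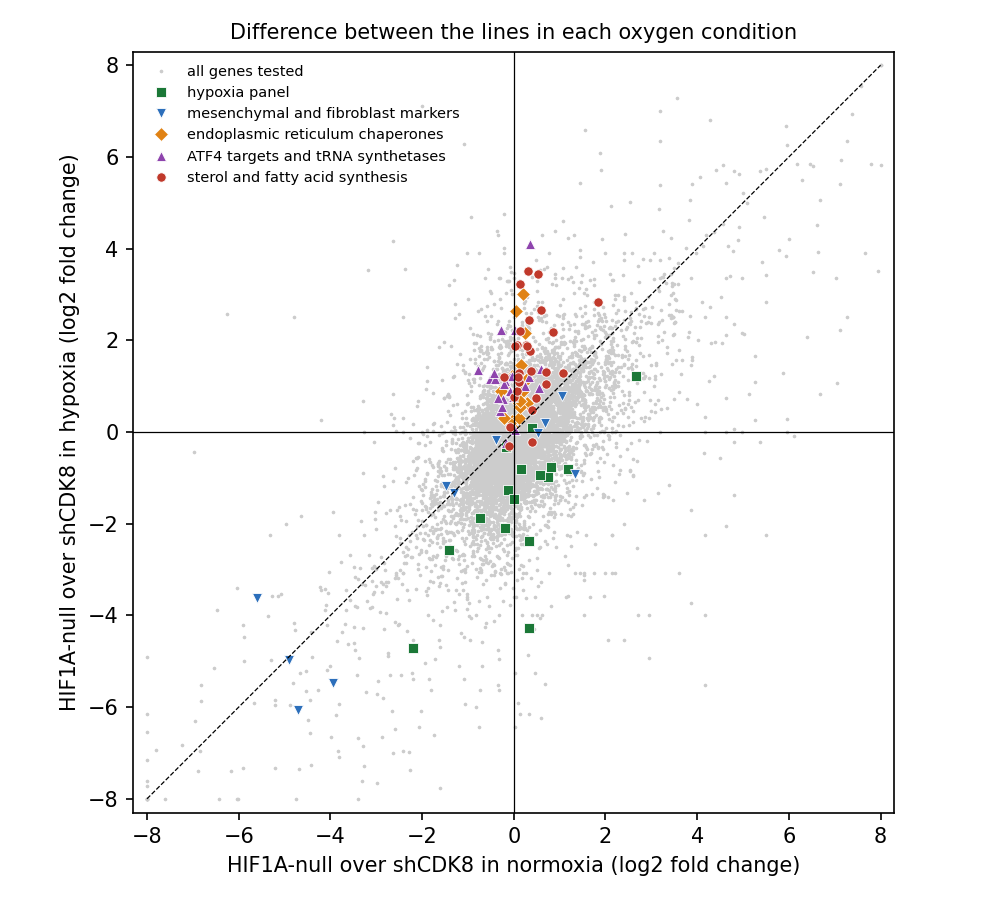
Difference between HIF1A-null and shCDK8 for each gene tested, as the log2 fold change in normoxia (horizontal axis) and in hypoxia (vertical axis); grey points are the 15520 genes tested, coloured points the members of 5 gene lists, and values beyond the axes are drawn at their edge. Mesenchymal markers lie mostly near the diagonal, and 6 of the 11 tested were lower in HIF1A-null in each condition. Sterol, ATF4-list and chaperone genes lie mostly above the line of no difference in hypoxia, and hypoxia-panel genes mostly below it.

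The hypoxia panel, 16 genes widely used as HIF reporters, was mostly lower in HIF1A-null than in shCDK8. 13 members were lower, 1 was higher and 2 did not pass the test, with a median log2 fold change of -1.12 against 0.00 over all genes tested. In normoxia 5 members were higher and 2 lower (median 0.24), and the hypoxia response was smaller in HIF1A-null for 12. The summed level of the panel was 5074 to 5124 CPM in HIF1A-null and 9334 to 11211 CPM in shCDK8 hypoxia libraries, beside 13335 to 14893 CPM in shNT.

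CA9, a membrane carbonic anhydrase that buffers acid outside the cell, gave the largest difference, with 0.186 and 0.325 CPM in HIF1A-null and 6.38 and 7.34 CPM in shCDK8 libraries, beside 56 and 44.2 CPM in shNT. The 3 lines thus formed separate steps, and the log2 fold change of HIF1A-null over shCDK8 was -4.70 ± 0.37 (adjusted p = 1.1e-07). EGLN3 (chromosome 14, 34393433 to 34931980, GRCh37), a HIF prolyl hydroxylase that is itself induced by hypoxia, stood at 4.39 and 2.53 CPM in HIF1A-null against 58.6 and 74.5 CPM in shCDK8 libraries, and at 66.3 and 65 CPM in shNT. For this gene shCDK8 and shNT libraries overlapped, and HIF1A-null alone was low (log2 -4.27 ± 0.22, adjusted p = 8.74e-10). ANKRD37, an ankyrin repeat protein, had 9.26 and 11.2 CPM in HIF1A-null, 46.3 and 76.3 CPM in shCDK8 and 181.3 and 278.1 CPM in shNT, again in 3 steps (log2 -2.58 ± 0.25). BNIP3, a receptor for the removal of mitochondria, followed the same order, with 29 and 32.7 CPM in HIF1A-null, 150.5 and 170.1 CPM in shCDK8 and 211 and 270.9 CPM in shNT (log2 -2.38 ± 0.17). The comparisons of HIF1A-null and of shCDK8 with shNT share the shNT libraries. Their log2 fold changes were -7.57 and -2.87 for CA9, -4.25 and 0.02 for EGLN3, and -2.97 and -0.59 for BNIP3. Over all genes, 41.1% differed between HIF1A-null and shNT and 27.9% between shCDK8 and shNT.

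PDK1, the kinase that keeps pyruvate out of the mitochondrion, had 18.2 and 27 CPM in HIF1A-null and 94.1 and 100.2 CPM in shCDK8 libraries (log2 -2.10 ± 0.19). HK2, a hexokinase that starts glycolysis, had 87.3 and 87 against 286.1 and 355.1 CPM (-1.88 ± 0.25), and PGK1, which makes ATP in the lower pathway, 809.3 and 882.9 against 2076.9 and 2607.9 CPM (-1.47 ± 0.16). None of these ranges overlapped. LDHA, which turns pyruvate into lactate, was at 979.8 and 1059.8 CPM in HIF1A-null and 2352.1 and 2554.2 CPM in shCDK8 (-1.27 ± 0.15). Smaller differences in the same direction were measured for ANGPTL4, an inhibitor of lipoprotein lipase (-0.97 ± 0.19), P4HA1, a subunit of collagen prolyl hydroxylase (-0.94 ± 0.17), the glucose transporter gene SLC2A1 (-0.81 ± 0.17) and KDM3A, a histone demethylase (-0.80 ± 0.18). NDRG1, a stress-responsive gene of differentiation, was lower by the test (-0.76 ± 0.24), but its call was lost without shCDK8 library B (log2 -0.43, adjusted p = 0.235) and without either HIF1A-null library.

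The other 3 panel genes did not pass the test in this direction. VEGFA, the main angiogenic growth factor, had 185.5 and 205.4 CPM in HIF1A-null and 244.4 and 244.6 CPM in shCDK8 libraries (log2 -0.32 ± 0.14, adjusted p = 0.0836). Both HIF1A-null libraries lay below both shCDK8 libraries. VEGFA passed the test with a replicate block (adjusted p = 0.0292) and with library totals (log2 -0.46, adjusted p = 0.00852). ADM, which encodes the vasodilator adrenomedullin, had 398.1 and 532.5 and 391 and 489.9 CPM (0.08 ± 0.17, adjusted p = 0.745). Both genes responded to hypoxia within each line, by 1.86 in HIF1A-null and 2.02 in shCDK8 for VEGFA, and by 3.37 and 3.68 for ADM. SLC2A3, a high-affinity glucose transporter, was the member that was higher, at 121.5 and 165 CPM in HIF1A-null and 46.1 and 77.1 CPM in shCDK8 libraries (log2 1.22 ± 0.21). It was also higher in normoxia, at 18.1 and 26.1 against 3.37 and 3.56 CPM (2.67 ± 0.25), and its reads are uncertain because SLC2A14 is a near-identical copy. SLC2A1 turned between the conditions, being higher in HIF1A-null in normoxia (1.17 ± 0.17) and lower in hypoxia.

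**Figure D2:**
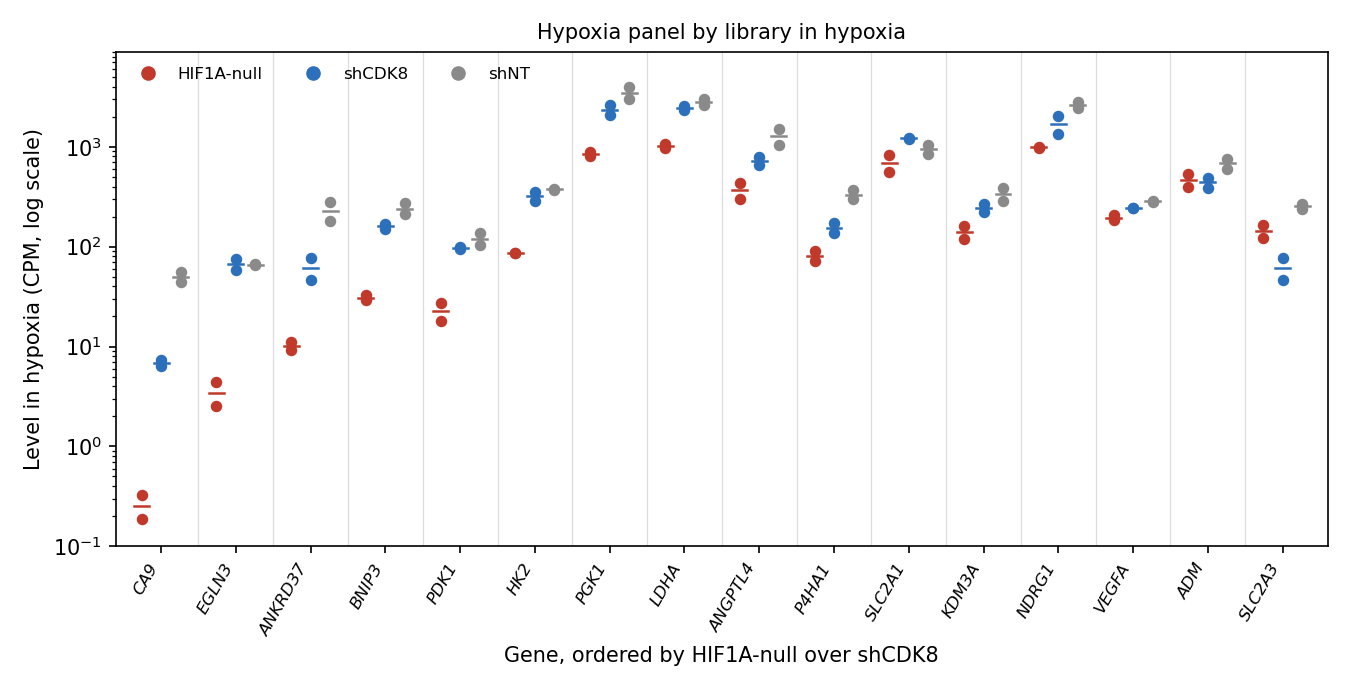
Level of each hypoxia-panel gene in hypoxia (CPM, log scale) by library, with HIF1A-null left of shCDK8 and shNT; points are libraries and short lines are means of 2. CA9, EGLN3, ANKRD37 and BNIP3 sit far lower in HIF1A-null than in shCDK8, and SLC2A3 sits higher in HIF1A-null. The HIF1A-null libraries lie a little below the shCDK8 libraries for VEGFA and overlap with them for ADM.

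Promoter sequence is shown for 4 panel genes because these genes are known targets of the factor that HIF1A-null cells lack. RefSeq promoters (GRCh38.p14, 250 bases before to 50 after the annotated start) were searched on both strands for ACGTG, the core of the hypoxia response element, which can overlap itself as CACGTG. The letters were present in 8 of the 13 panel genes with a promoter (61.5%) and in 3048 of 11680 promoters of all genes tested (26.1%). They were present in 27.2% of promoters of genes lower in HIF1A-null and 25.6% of those of genes higher. A match is a description and neither a site nor a cause. CA9 (chr9:35673678-35673977, plus strand) held 1 match, LDHA (chr11:18394313-18394612, plus strand) 5, BNIP3 (chr10:131981874-131982173, minus strand) 2 and ANKRD37 (chr4:185396591-185396890, plus strand) 3. The sequences run 5′ to 3′ on the gene's strand, and capitals mark ACGTG or its complement CACGT.
CA9: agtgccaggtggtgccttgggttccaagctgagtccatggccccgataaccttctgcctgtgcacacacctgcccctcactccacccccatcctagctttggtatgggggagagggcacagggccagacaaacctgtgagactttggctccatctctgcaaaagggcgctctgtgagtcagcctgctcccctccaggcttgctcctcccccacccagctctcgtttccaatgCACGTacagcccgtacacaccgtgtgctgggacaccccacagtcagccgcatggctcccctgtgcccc
LDHA: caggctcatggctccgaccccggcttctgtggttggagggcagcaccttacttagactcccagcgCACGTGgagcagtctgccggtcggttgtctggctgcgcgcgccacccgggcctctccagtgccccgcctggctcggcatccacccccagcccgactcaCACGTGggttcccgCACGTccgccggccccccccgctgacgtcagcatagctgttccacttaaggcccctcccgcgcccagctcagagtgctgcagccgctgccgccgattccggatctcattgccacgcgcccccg
BNIP3: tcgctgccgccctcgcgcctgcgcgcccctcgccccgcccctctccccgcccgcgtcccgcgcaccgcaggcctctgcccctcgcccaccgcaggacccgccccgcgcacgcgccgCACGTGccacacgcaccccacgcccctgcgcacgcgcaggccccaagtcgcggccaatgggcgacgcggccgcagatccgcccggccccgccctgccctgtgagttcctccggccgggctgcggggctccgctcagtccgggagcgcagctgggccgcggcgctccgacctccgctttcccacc
ANKRD37: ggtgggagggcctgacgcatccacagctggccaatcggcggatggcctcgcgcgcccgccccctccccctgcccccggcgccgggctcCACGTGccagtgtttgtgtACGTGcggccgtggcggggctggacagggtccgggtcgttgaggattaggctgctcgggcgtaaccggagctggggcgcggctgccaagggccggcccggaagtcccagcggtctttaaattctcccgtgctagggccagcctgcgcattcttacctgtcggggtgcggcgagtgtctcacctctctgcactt

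Most glycolysis genes were lower in hypoxic HIF1A-null cells. Among 13 genes of glucose uptake and upper glycolysis, 10 were lower and 1 higher (median -0.73), while in normoxia 1 was lower and 3 were higher. Among 9 genes of lower glycolysis and lactate handling, 7 were lower (median -1.27). PFKFB4 (chromosome 3, 48555117 to 48599448, GRCh37), which sets the level of the glycolytic activator fructose 2,6-bisphosphate, had 22.8 and 20.1 CPM in HIF1A-null and 228.8 and 241.9 CPM in shCDK8 libraries. The log2 fold change was -3.46 ± 0.15 (adjusted p = 1.54e-10), against 0.21 ± 0.14 in normoxia (adjusted p = 0.29), where levels were 24.9 and 22.6 and 21.5 and 19.5 CPM. Hypoxia changed PFKFB4 by -0.15 ± 0.14 in HIF1A-null cells, which did not pass the test, and by 3.52 ± 0.15 in shCDK8 cells. GPI, glucose-6-phosphate isomerase, had 932 and 925.8 CPM in HIF1A-null against 2570.1 and 2533.3 CPM in shCDK8 (-1.46 ± 0.17). ENO2 and ENO1, which encode enolases, were lower (-2.02 ± 0.13 and -1.34 ± 0.15), as was SLC16A3, the exporter of lactate (-1.41 ± 0.19). GAPDH was lower too (-0.83 ± 0.14), at 4631.1 and 4468.7 against 7585.7 and 8590.9 CPM. LDHB and SLC16A1, the lactate dehydrogenase subunit and transporter found in cells that take lactate up, had log2 fold changes of 0.02 and -0.23 and did not pass the test.

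Genes of glycogen and acid handling that differed were mostly lower as well. GBE1, the glycogen branching enzyme, had 27.6 and 33.5 CPM in HIF1A-null and 155.6 and 161.4 CPM in shCDK8 libraries (-2.37 ± 0.13), and GYS1, the muscle-type glycogen synthase, was lower as well (-1.35 ± 0.15). GYS1 was higher in HIF1A-null in normoxia (0.84 ± 0.15). PDP1, a phosphatase that reactivates pyruvate dehydrogenase, was higher, at 1248.4 and 1854.3 against 575.5 and 680.5 CPM (1.30 ± 0.21). In all, 6 of 14 genes of pyruvate entry and glycogen were lower and 1 was higher. Of 7 genes of acid and carbon dioxide handling 4 were lower, among them CA12, a second membrane carbonic anhydrase, at 2.01 and 2.24 against 6.46 and 5.53 CPM (-1.49 ± 0.17). SLC4A7, a sodium bicarbonate importer, was higher at 142.6 and 151.6 against 47.1 and 51.7 CPM (1.57 ± 0.17).

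Several oxygen-dependent enzymes were lower in HIF1A-null. EGLN1, the main HIF prolyl hydroxylase, had 55.1 and 49.8 CPM in HIF1A-null and 190.5 and 197.8 CPM in shCDK8 libraries (-1.89 ± 0.13, adjusted p = 3.23e-08). PLOD2, a lysyl hydroxylase that prepares collagen for cross-linking, had 13.6 and 20.1 against 160 and 169.4 CPM (-3.29 ± 0.19), and PLOD1 and P4HA2, of the lysyl and prolyl hydroxylase families, were also lower (-1.15 ± 0.17 and -1.02 ± 0.15). Of 14 collagen hydroxylases and lysyl oxidases 6 were lower and 1 higher. Among 17 JmjC demethylases and hydroxylases, 8 were lower and 3 higher. Over all genes 21.3% were lower and 19.0% higher, so the 3 higher were near that share. C14orf169, the gene of the ribosomal oxygenase NO66, had 0.186 and 0.292 CPM in HIF1A-null and 3.94 and 3.92 CPM in shCDK8 libraries (-4.00 ± 0.29). The histone demethylases KDM4B (-1.63 ± 0.16) and KDM4C (-1.14 ± 0.12) were lower, while KDM6A, which removes repressive methyl groups from histone H3, was higher, at 59.3 and 70 against 27.6 and 31.2 CPM (adjusted p = 2.93e-05). EPAS1, which encodes the second HIF alpha subunit, had 54.3 and 54.2 CPM in HIF1A-null against 68.7 and 71.5 CPM in shCDK8 (-0.37 ± 0.13, adjusted p = 0.0319). ARNT, the shared partner of the alpha subunits, was higher (0.44 ± 0.16). The EPAS1 call was lost without any 1 of the 4 libraries (adjusted p from 0.0849 to 0.131), and the ARNT call without HIF1A-null library B (log2 0.23, adjusted p = 0.379) or either shCDK8 library. VHL did not pass the test (-0.14).

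Of 11 genes of mitochondrial adaptation 5 were lower and 2 higher. BNIP3L, a second mitophagy receptor, had 63.7 and 64 CPM in HIF1A-null and 245.7 and 293 CPM in shCDK8 libraries (-2.08 ± 0.18), and FAM162A, a hypoxia-induced mitochondrial protein, had 46.4 and 47.9 against 230.1 and 273.5 CPM (-2.42 ± 0.14). PINK1, a kinase that marks damaged mitochondria, was higher in hypoxia (1.16 ± 0.18) and in normoxia (1.10 ± 0.18). Among angiogenic and vasoactive factors 3 of 13 were higher and 5 lower, where 19.0% of all genes were higher and 21.3% lower, so the 3 higher were near that share. ANGPT2, an antagonist of the endothelial receptor TIE2, had 1 count in the HIF1A-null libraries together and 85 in the shCDK8 libraries, a shCDK8 over HIF1A-null ratio of 67.6 with a 95% counting interval of 11.8 to 2699. STC2, a secreted glycoprotein, was higher in hypoxia (0.89 ± 0.21) and lower in normoxia (-0.68 ± 0.21), the second call being lost without HIF1A-null normoxia library B (log2 -0.40, adjusted p = 0.231) or either shCDK8 normoxia library.

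**Figure D3:**
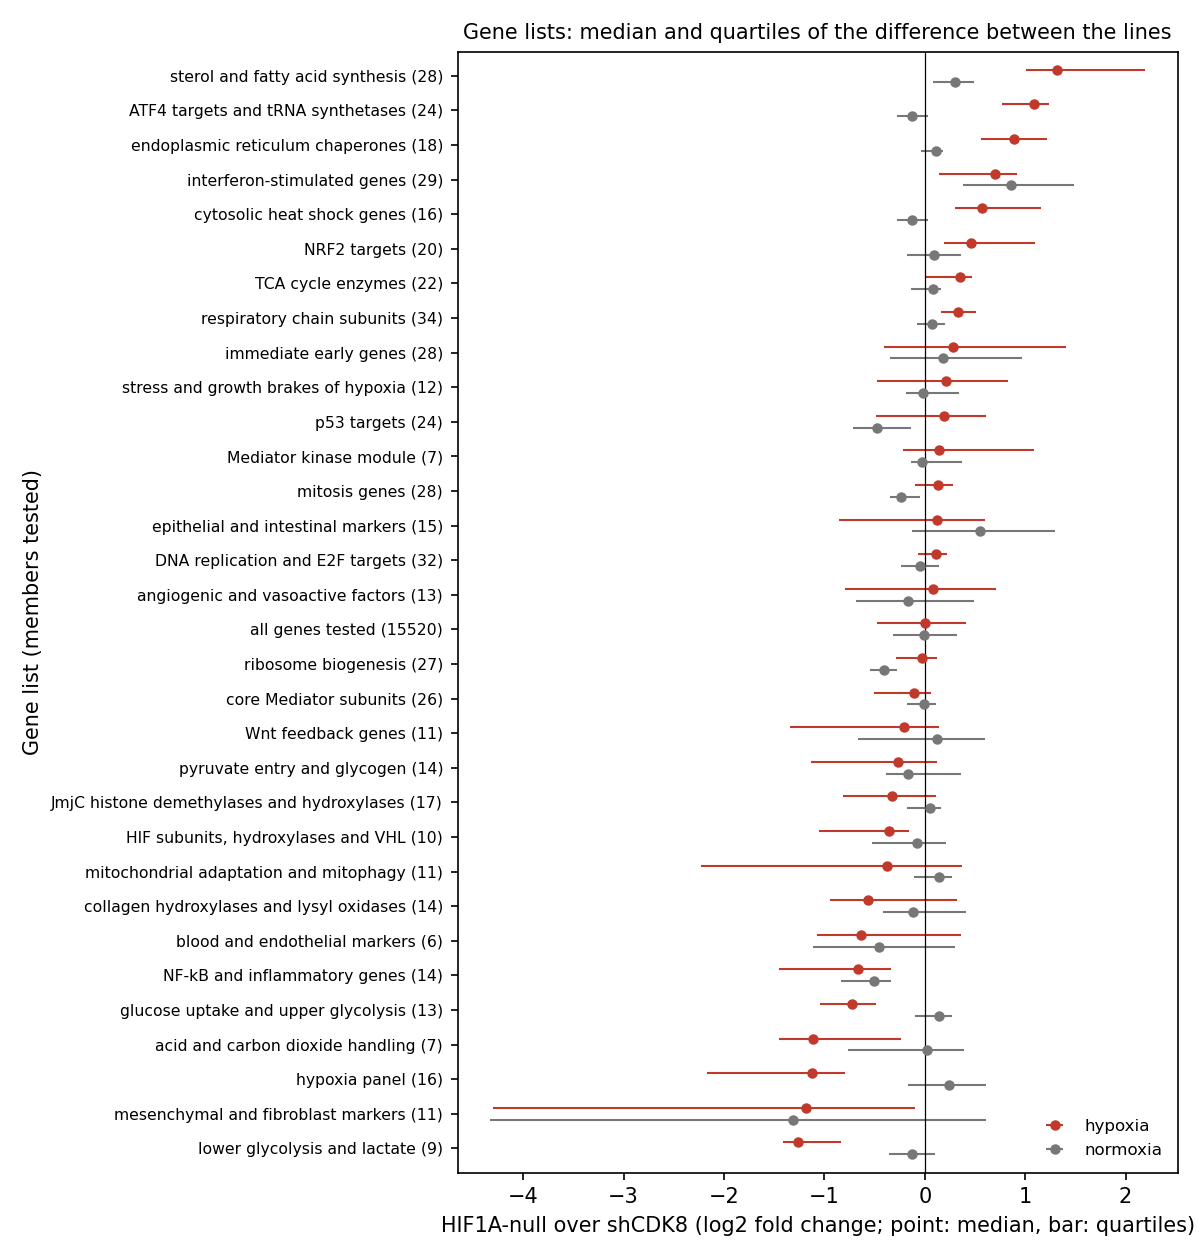
Median (point) and quartiles (bar) of the log2 fold change of HIF1A-null over shCDK8 over the tested members of each gene list and over all genes tested, in hypoxia and in normoxia; the number of members tested is in parentheses. The lower glycolysis, panel, mesenchymal and acid handling lists have medians below -1 in hypoxia and the sterol and ATF4 lists above 1, while the mesenchymal list alone lies below -1 in normoxia.

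Genes of lipid synthesis had the highest median of the 31 lists in hypoxic HIF1A-null cells. Of 28 genes of sterol and fatty acid synthesis, 24 were higher (median 1.32), against 8 in normoxia (median 0.30). In hypoxia 0 were lower by edgeR's test, by DESeq2 or at an unadjusted p under 0.05. The hypoxia response was larger in HIF1A-null for 19. Hypoxia raised 23 of the 28 and lowered 1 within HIF1A-null cells, and raised 6 and lowered 1 within shCDK8 cells. Of all genes tested, 18.9% rose and 19.1% fell with hypoxia in HIF1A-null (38.0% together), and 13.8% rose and 11.0% fell in shCDK8 (24.8%). HMGCS1 (chromosome 5, 43287572 to 43313614, GRCh37), which makes the precursor of mevalonate, had 449.1 and 647.8 CPM in HIF1A-null and 52.9 and 47.7 CPM in shCDK8 libraries, beside 64.7 and 67.4 CPM in shNT. HIF1A-null alone was high, and the log2 fold change over shCDK8 was 3.45 ± 0.19 (adjusted p = 1.49e-09). In normoxia the values were 60.8 and 79.7 and 47 and 50.4 CPM (0.53 ± 0.17). Leaving out HIF1A-null normoxia library B (log2 0.32, adjusted p = 0.271) or either shCDK8 normoxia library ended that call. INSIG1, the sensor that holds SREBP factors in the reticulum and is one of their targets, had 806.7 and 1188.2 against 114.1 and 98.8 CPM (3.23 ± 0.22). The sterol demethylation enzyme gene MSMO1 had 279 and 527.9 against 34.3 and 36.8 CPM (3.50 ± 0.30). FASN, fatty acid synthase, reached 11233 and 9128.1 CPM in HIF1A-null against 3400.3 and 2103.1 CPM in shCDK8 (1.89 ± 0.34). SREBF1 and SREBF2, which encode the SREBP factors themselves, were higher by 1.31 ± 0.24 and 1.05 ± 0.14. PMVK (-0.22), LSS (0.48), ELOVL6 (0.12) and FADS2 (-0.30) did not pass the test. Against shNT in hypoxia, 23 of the 28 were higher in HIF1A-null, where 20.3% of all genes were higher and 20.8% lower, and 8 were lower in shCDK8, where 14.4% of all genes were higher and 13.4% lower. These comparisons share the shNT libraries.

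Genes of the amino acid response driven by ATF4 were the next group. Of 24, 21 were higher in HIF1A-null than in shCDK8 in hypoxia (median 1.09), and 0 were lower by edgeR, by DESeq2 or at an unadjusted p under 0.05. In normoxia 1 was higher and 2 were lower. For 19 the hypoxia response was larger in HIF1A-null. DDIT3 (chromosome 12, 57910371 to 57915520, GRCh37), a transcription factor of prolonged reticulum stress, had 453 and 617.6 CPM in HIF1A-null and 21.9 and 40.8 CPM in shCDK8 libraries. That is a log2 fold change of 4.10 ± 0.31 (adjusted p = 7.27e-08), against 0.35 ± 0.29 in normoxia (adjusted p = 0.417). ASNS, asparagine synthetase, had 371.9 and 565.4 against 101.8 and 97.6 CPM (2.23 ± 0.25), beside 116.5 and 117.1 CPM in shNT. CHAC1, which breaks down glutathione, had 47.5 and 47.9 against 11.2 and 9.12 CPM (2.23 ± 0.20). Here too the HIF1A-null libraries stood alone above both other lines, with CHAC1 at 5.55 and 5.92 CPM in shNT. ATF4 itself was higher, at 799.9 and 780.4 against 319 and 362.3 CPM (1.21 ± 0.15), as were SLC7A11, the cystine importer (1.35 ± 0.24), TRIB3, a pseudokinase of the same response (1.30 ± 0.17), and the alanyl-tRNA synthetase gene AARS (1.20 ± 0.14). SLC7A11 was lower in HIF1A-null in normoxia (-0.77 ± 0.24), a call lost without either HIF1A-null normoxia library or shCDK8 normoxia library B (log2 -0.47, adjusted p = 0.292). PSPH (0.04), ATF5 (-0.23) and NUPR1 (1.38) did not pass the test.

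Chaperones of the endoplasmic reticulum were also mostly higher. Of 18, 14 were higher in hypoxia (median 0.88), and 0 were lower by edgeR, by DESeq2 or at an unadjusted p under 0.05. Their normoxia median was 0.11, and 9 had a larger hypoxia response in HIF1A-null. HSPA5 (chromosome 9, 127997132 to 128003661, GRCh37), the master chaperone BiP, had 4930.2 and 8009.5 CPM in HIF1A-null and 847.1 and 1219.5 CPM in shCDK8 libraries, beside 1085.8 and 1385.1 CPM in shNT (log2 over shCDK8 2.65 ± 0.22, adjusted p = 1.7e-07). HERPUD1, a component of the machinery that degrades misfolded proteins, had 519.5 and 888.8 against 71.2 and 102.9 CPM (3.02 ± 0.24), and DNAJB9, a co-chaperone of BiP, 44.2 and 87 against 13.1 and 16.3 CPM (2.16 ± 0.28). HIF1A-null library B was above library A for each of these genes. CALR (0.62), CANX (0.10), CRELD2 (0.23) and XBP1 (0.31) did not pass the test. Cytosolic heat shock genes moved less, with 11 of 16 higher and 2 lower, and the 2 lower calls fell to none without either shCDK8 library. HSPA8, the constitutive cytosolic HSP70, had 1586.8 and 2667 CPM in HIF1A-null against 785.2 and 723.6 CPM in shCDK8 (adjusted p = 2.87e-05). Within HIF1A-null cells hypoxia raised 3 of these 16 genes and lowered 1, and within shCDK8 cells it lowered 11. Over all genes 18.9% rose and 19.1% fell in HIF1A-null, so the rise of 3 was near that share. In shCDK8 13.8% of all genes rose and 11.0% fell.

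**Figure D4:**
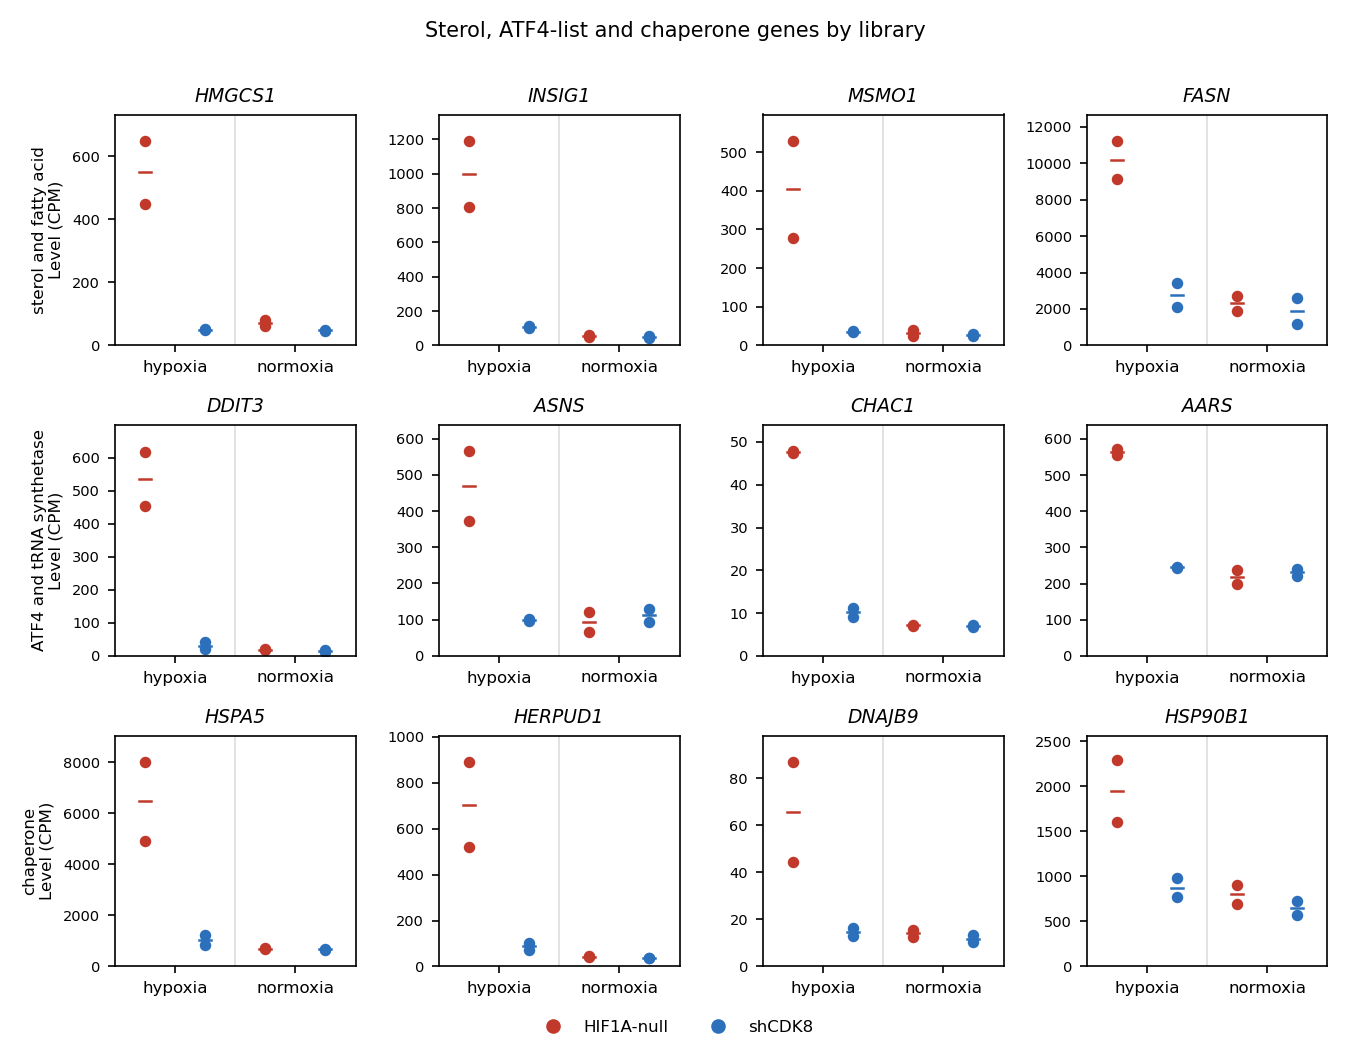
Level (CPM, linear axes) of 4 sterol and fatty acid genes, 4 ATF4-list genes and 4 chaperone genes in HIF1A-null and shCDK8 libraries, in hypoxia and in normoxia; points are libraries and short lines are means of 2. In each panel the hypoxic HIF1A-null libraries stand above the other 3 groups.

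The promoters of 4 of these genes are shown, picked because they held the letters of a known response element and were higher in HIF1A-null. Here too a match is a description and neither a site nor a cause. TGATGNAA, the composite site of C/EBP and ATF factors, was searched on both strands of the same RefSeq promoters. The letters were present in 5 of the 17 promoters of the ATF4 list (29.4%) and in 201 of 11680 of all genes tested (1.72%). Besides ASNS and CHAC1 (log2 2.23 each), the carriers were AARS (1.20), SLC3A2 (1.16) and NARS (0.55). The endoplasmic reticulum stress element, CCAAT and then CCACG after 9 bases of any kind, was present in 6 of 17 promoters of the chaperone list (35.3%) and in 15 of 11680 (0.128%). Of those 6 genes, HSPA5 and HSP90B1 were higher in HIF1A-null, and CALR, CANX, CRELD2 and XBP1 did not pass the test. TCACCCCAC, a sterol regulatory element, was found in 1 of 21 promoters of the sterol list, that of SREBF2, and in 43 of 11680 (0.368%). Among promoters of all genes higher and lower in HIF1A-null, TGATGNAA was present in 2.29% and 1.59%. The reticulum stress element was in 0.275% and 0.0389% of them, and TCACCCCAC in 0.55% and 0.35%. ASNS (chr7:97872359-97872658, minus strand), CHAC1 (chr15:40953221-40953520, plus strand) and HSPA5 (chr9:125241294-125241593, minus strand) held 1 match each and HSP90B1 (chr12:103930160-103930459, plus strand) held 2. Capitals mark the matched letters on either strand.
ASNS: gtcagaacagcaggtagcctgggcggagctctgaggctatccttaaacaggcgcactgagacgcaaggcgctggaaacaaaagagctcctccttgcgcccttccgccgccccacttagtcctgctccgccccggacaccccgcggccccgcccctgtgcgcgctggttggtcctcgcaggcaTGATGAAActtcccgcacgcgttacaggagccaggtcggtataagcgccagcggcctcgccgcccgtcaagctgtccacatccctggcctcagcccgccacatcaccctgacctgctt
CHAC1: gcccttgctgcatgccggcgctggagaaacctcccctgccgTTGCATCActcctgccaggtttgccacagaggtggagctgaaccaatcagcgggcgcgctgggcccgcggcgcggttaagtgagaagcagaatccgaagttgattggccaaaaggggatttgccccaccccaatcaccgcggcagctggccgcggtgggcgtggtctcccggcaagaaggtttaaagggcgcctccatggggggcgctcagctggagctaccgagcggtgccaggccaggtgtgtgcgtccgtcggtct
HSPA5: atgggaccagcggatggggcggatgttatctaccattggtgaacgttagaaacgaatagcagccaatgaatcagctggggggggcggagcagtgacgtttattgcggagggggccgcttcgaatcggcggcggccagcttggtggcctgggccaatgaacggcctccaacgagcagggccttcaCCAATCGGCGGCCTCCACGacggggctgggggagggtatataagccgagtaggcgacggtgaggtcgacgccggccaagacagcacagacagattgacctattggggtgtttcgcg
HSP90B1: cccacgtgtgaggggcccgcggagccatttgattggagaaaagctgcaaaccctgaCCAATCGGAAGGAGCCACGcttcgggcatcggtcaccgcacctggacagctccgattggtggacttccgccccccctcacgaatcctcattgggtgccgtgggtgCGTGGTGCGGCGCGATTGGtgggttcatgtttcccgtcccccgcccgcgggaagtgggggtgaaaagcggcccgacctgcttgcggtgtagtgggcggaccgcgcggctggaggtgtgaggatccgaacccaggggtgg

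Immediate early genes, which respond within minutes to growth factors and stress, were more often higher than lower. Of 28, 12 were higher and 5 lower in HIF1A-null in hypoxia (median 0.28), beside 19.0% and 21.3% of all genes, so the 5 lower were near the share of all genes. The nuclear receptor gene NR4A1 had 419.1 and 606.6 CPM in HIF1A-null and 44.5 and 61 CPM in shCDK8 libraries (3.28 ± 0.19), and its paralogs NR4A2 (3.26 ± 0.28) and NR4A3 (4.59 ± 0.33) were also higher. ATF3, a stress-induced repressor, had 200.9 and 300.2 against 40.6 and 52.5 CPM (2.43 ± 0.20), and FOSB, an AP-1 subunit, was higher by 2.27 ± 0.21. MYC, the growth regulator, had 421.4 and 316.6 CPM in HIF1A-null against 732.1 and 739.2 CPM in shCDK8 (adjusted p = 8.01e-05), and FOSL1, another AP-1 subunit, was lower too (-1.66 ± 0.29). Among 12 genes that brake growth in hypoxia 4 were higher and 3 lower, beside the same shares of all genes. TSC22D3, the glucocorticoid-induced leucine zipper protein, had 178.3 and 292.6 CPM in HIF1A-null and 19.4 and 23 CPM in shCDK8 libraries, beside 48 and 60.5 CPM in shNT (3.47 ± 0.24), and in normoxia it had 6.23 and 10.3 and 8.32 and 8.07 CPM (0.01 ± 0.24, adjusted p = 0.977). SESN2, a sestrin that restrains mTORC1, was higher by 1.84 ± 0.16. DDIT4, another inhibitor of mTORC1, had 604.5 and 849.8 and 872.4 and 1115.3 CPM and did not pass the test (-0.45, adjusted p = 0.0762).

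Targets of p53 moved both ways, with 10 of 24 higher and 8 lower in hypoxia, against 1 higher and 15 lower in normoxia (median -0.47). Over all genes 19.0% were higher and 21.3% lower in hypoxia, and 12.5% and 11.4% in normoxia. Without HIF1A-null library B, 5 rather than 8 were lower in hypoxia. PLK3, a stress kinase, had 367.6 and 385.4 against 78.1 and 89.7 CPM (2.17 ± 0.13), and BAX, an effector of apoptosis, was higher by 1.24 ± 0.13. TP53I3, a quinone oxidoreductase, was lower (-1.84 ± 0.21), as was the death receptor gene FAS (-1.10 ± 0.17). CDKN1A, the cell cycle inhibitor p21, was lower in hypoxia (-0.35 ± 0.12) and in normoxia (-0.93 ± 0.12), and its hypoxia call was lost without any 1 of the 4 libraries (adjusted p from 0.0718 to 0.131).

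Cell cycle genes separated the lines little. Of 32 DNA replication genes 1 was higher and 2 were lower (median 0.11), and of 28 mitosis genes 4 were higher and 2 lower (median 0.13), shares under the 40.3% of all genes. CCNE2, cyclin E2, was lower in hypoxia (-0.96 ± 0.22) and in normoxia (-1.07 ± 0.21), and CDC25B, a phosphatase that starts mitosis, was higher (1.54 ± 0.16 and 0.91 ± 0.16). The calls of the other replication genes, CCNE1 (-0.48) and CDC6 (0.60), were lost without either shCDK8 library. The CCNE1 call was also lost without HIF1A-null library B (adjusted p = 0.212), and that of CDC6 without HIF1A-null library A (adjusted p = 0.148). Of 27 ribosome biogenesis genes 1 was higher and 5 were lower (median -0.03).

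Respiration and redox genes that differed were mostly higher. Of 34 respiratory chain subunits 14 were higher (median 0.33), against 1 in normoxia. 0 were lower by edgeR or DESeq2, and 1 was lower at an unadjusted p under 0.05. That count fell to 9 higher and 2 lower with scaling by library totals, to 9 without HIF1A-null library B and to 6 without shCDK8 library A. NDUFS1, the largest subunit of complex I, had 92.3 and 119.5 CPM in HIF1A-null and 46.8 and 46 CPM in shCDK8 libraries (1.19 ± 0.13). Of 22 genes of the TCA cycle 9 were higher and 1 was lower, or 3 lower with library totals. The shares over all genes were 19.0% higher and 21.3% lower. GLUD1, which feeds glutamate into the cycle, was higher by 1.33 ± 0.13, and PC, pyruvate carboxylase, was lower (-1.56 ± 0.16). Of 20 NRF2 targets 11 were higher and 2 lower. FTL, the light chain of the iron store ferritin, had 3160.9 and 3840.2 against 699.6 and 861.8 CPM (2.16 ± 0.19), and GCLC, the rate-limiting enzyme of glutathione synthesis, was higher by 1.36 ± 0.13. AKR1C3, an aldo-keto reductase of steroids, had 0 and 0.13 CPM in HIF1A-null and 2 and 1.5 CPM in shCDK8 libraries (-4.59 ± 0.60), and 0.126 and 0.175 against 1.58 and 1.86 CPM in normoxia. The AKR1C genes are close copies of each other, so their reads are uncertain.

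Interferon-stimulated genes differed between the lines at both oxygen levels. Of 29, 16 were higher and 4 lower in HIF1A-null in hypoxia (median 0.70), and 19 were higher in normoxia (median 0.86). IRF7, a transcription factor of interferon induction, had 92.9 and 62.7 CPM in HIF1A-null and 19.4 and 19.9 CPM in shCDK8 hypoxia libraries (1.99 ± 0.26), and 41.9 and 25.7 against 8.89 and 6.24 CPM in normoxia (2.16 ± 0.27). HLA-B, a class I antigen-presenting molecule, was higher by 0.87 ± 0.14 in hypoxia and by 1.08 ± 0.14 in normoxia. For some members the HIF1A-null replicates stood apart: IFI6, which encodes a mitochondrial antiviral protein, had 91 and 19.7 CPM in libraries A and B of HIF1A-null and 10.5 and 8.13 CPM in shCDK8. IFIT2, an antiviral RNA-binding protein, was lower in hypoxia (-1.76 ± 0.44). Without HIF1A-null library A the call of IFI6 was lost (adjusted p = 0.0635), and without library B that of IFIT2 (log2 -0.96, adjusted p = 0.0637). Without library B 1 of the 29 was lower rather than 4. Of 14 NF-kB and inflammatory genes 7 were lower (median -0.67). ICAM1, a leukocyte adhesion receptor, had 0.632 and 0.942 CPM in HIF1A-null, 3.46 and 3.19 CPM in shCDK8 and 15.6 and 14.3 CPM in shNT (-2.06 ± 0.26). BIRC3, an inhibitor of apoptosis, was lower in hypoxia (-2.30 ± 0.23) and in normoxia (-2.12 ± 0.24), and RELA, which encodes the p65 subunit of NF-kB, was lower in hypoxia (-0.83 ± 0.17).

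Several mesenchymal markers were lower in HIF1A-null in each condition. Of 11 mesenchymal markers tested 6 were lower and 1 higher in HIF1A-null in hypoxia (median -1.19), and 6 were lower and 2 higher in normoxia (median -1.31). The 1 higher, FN1, lost its call without HIF1A-null library B, without either shCDK8 library and with library totals. VIM, which encodes the intermediate filament vimentin, had 0.632 and 0.552 CPM in HIF1A-null and 17.7 and 19.6 CPM in shCDK8 hypoxia libraries, beside 11.6 and 9.69 CPM in shNT (-4.97 ± 0.23, adjusted p = 3.96e-10). In normoxia VIM stood at 0.429 and 0.601 against 14.6 and 16.7 CPM (-4.91 ± 0.23). TWIST1 and ZEB1, transcription factors of epithelial to mesenchymal transition, were lower as well (-6.06 ± 0.43 and -1.19 ± 0.24). The defining fibroblast genes COL1A2, COL3A1, DCN and LUM were too low to test. Of 15 epithelial and intestinal markers tested 5 were higher and 2 lower in normoxia, where 12.5% of all genes were higher and 11.4% lower. In hypoxia 5 were higher and 4 lower, where 19.0% of all genes were higher and 21.3% lower. KRT8, a keratin of simple epithelia, had 5203 and 3772.7 CPM in HIF1A-null and 3750.7 and 3826.4 CPM in shCDK8 libraries and did not pass the test (0.24). KRT20, an intestinal keratin, was higher (3.90 ± 0.38), and ELF3, an epithelial transcription factor, was lower, at 122.8 and 89.5 against 850.3 and 784.7 CPM (-2.95 ± 0.19). The summed level of the mesenchymal list was 109.3 to 135.2 CPM in HIF1A-null and 133.5 to 139.0 CPM in shCDK8 hypoxia libraries, and that of the blood and endothelial list, of which 2 of 6 tested were lower, was 32.0 to 50.6 CPM and 65.2 to 84.0 CPM. Their part in the other results was not tested.

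Wnt feedback genes, which report beta-catenin activity in colorectal cells, were lower in 5 of 11 cases and higher in 2. The shares over all genes were 21.3% lower and 19.0% higher. AXIN2, an inhibitor of the pathway and one of its best-known targets, had 5.99 and 5.94 CPM in HIF1A-null and 39.6 and 36.5 CPM in shCDK8 libraries, beside 6.66 and 9.03 CPM in shNT (-2.67 ± 0.18). It was shCDK8 that stood apart from the other lines here. BMP4, a bone morphogenetic protein, had 460.7 and 297.1 CPM in HIF1A-null, 1239.4 and 1266.9 CPM in shCDK8 and 78.4 and 76.3 CPM in shNT, and HIF1A-null lay between (-1.73 ± 0.16). DKK1, a secreted Wnt inhibitor, was higher, at 1823.3 and 1531 against 474.6 and 511.9 CPM (1.77 ± 0.16).

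The largest single differences are given with the line that stood apart. Among genes higher in HIF1A-null, ASB10, a substrate receptor of ubiquitin ligases, had 5.39 and 6.36 CPM and no count in either shCDK8 or shNT library. Taken against a floor of 3 counts over the group, it was at least 143-fold higher than in shCDK8 in hypoxia and at least 71.9-fold higher in normoxia. TENM3 (chromosome 4, 183065140 to 183724177, GRCh37), a teneurin adhesion receptor, had 49 and 56.3 CPM in HIF1A-null against 0.351 and 0.198 CPM in shCDK8 and 0.103 and 0.132 CPM in shNT (7.56 ± 0.24). H19, an imprinted long noncoding RNA, had 409.2 and 202.2 CPM in HIF1A-null and 14.6 and 12.8 CPM in shCDK8 (4.48 ± 0.36), and RGS2, a brake on G protein signalling, 79.2 and 97.2 against 2.05 and 2.15 CPM (5.39 ± 0.23). ANXA10, a calcium-binding annexin, had 33.5 and 31.2 CPM in HIF1A-null, 1.35 and 1.81 CPM in shCDK8 and 0.138 and 0.165 CPM in shNT (4.36 ± 0.22). HIF1A-null stood above both other lines in each of these cases, with H19 at 13.4 and 12 and RGS2 at 5.07 and 5.19 CPM in shNT. For others shCDK8 was the lowest line. CYP4F11, a fatty acid hydroxylase, had 72.6 and 57.8 CPM in HIF1A-null, 0.594 and 0.677 CPM in shCDK8 and 55.1 and 58.2 CPM in shNT (6.67 ± 0.22). NFIB, a nuclear factor I transcription factor, had 11.6 and 17.7 CPM in HIF1A-null, 0.351 and 0.564 CPM in shCDK8 and 15.9 and 23.5 CPM in shNT (4.99 ± 0.32). F10, coagulation factor X, had 6.17 and 5.42 CPM in HIF1A-null, 0.108 and 0.0847 CPM in shCDK8 and 22.5 and 19.6 CPM in shNT, and HIF1A-null lay between (5.85 ± 0.38).

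Among genes lower in HIF1A-null, GPR110 (chromosome 6, 46965445 to 47010086, GRCh37), an adhesion G protein-coupled receptor, had no count in HIF1A-null hypoxia libraries, 19.5 and 20 CPM in shCDK8 and 43.9 and 43.6 CPM in shNT. It was at least 379-fold lower in HIF1A-null than in shCDK8. IGFBP3, a binding protein of insulin-like growth factors, had 0.521 and 0.13 CPM in HIF1A-null, 19.3 and 29.7 CPM in shCDK8 and 42.7 and 27.4 CPM in shNT (-6.27 ± 0.37). Other genes were high in shCDK8 above both other lines. NRG1, the ERBB receptor ligand neuregulin, had 0.112 and 0.26 CPM in HIF1A-null, 65.9 and 78.8 CPM in shCDK8 and 4 and 5.89 CPM in shNT (-8.54 ± 0.34). TNFSF4, the immune costimulator OX40 ligand, had 0.744 and 0.584 CPM in HIF1A-null, 82.8 and 80.9 CPM in shCDK8 and 1.83 and 2.05 CPM in shNT (-6.95 ± 0.34). PODXL2, a sialomucin, had 1 count in the HIF1A-null libraries together and 1513 in the shCDK8 libraries, a shCDK8 over HIF1A-null ratio of 1202 with a 95% counting interval of 215 to 47527. Such intervals cover counting error only. TM4SF18, a tetraspanin-like membrane protein, TNFSF18, the GITR ligand, SNTB1, a syntrophin, VSNL1, a calcium sensor, and ZNF608 were also lower, the fitted values for VSNL1 and ZNF608 being -6.55 ± 0.40 and -5.95 ± 0.24.

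**Figure D5:**
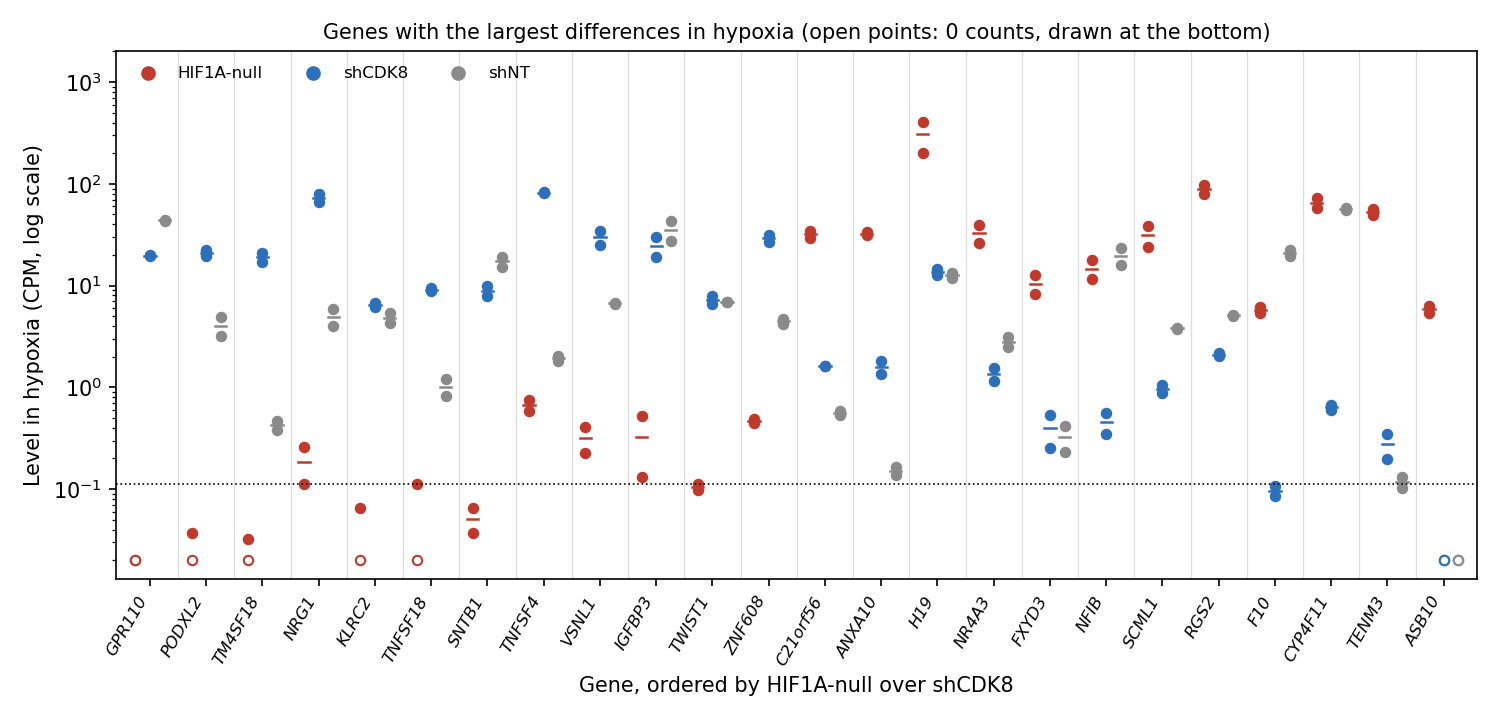
Level in hypoxia (CPM, log scale) by library of the genes with the largest differences, with HIF1A-null left of shCDK8 and shNT; points are libraries, short lines are means of 2, open points are libraries with 0 counts drawn at the bottom, and the dotted line is the highest floor of 3 counts, 0.112 CPM. ASB10, TENM3 and ANXA10 are high in HIF1A-null alone, CYP4F11 and NFIB are low in shCDK8 alone, and NRG1, TM4SF18 and TNFSF4 are high in shCDK8 alone. F10 is lowest in shCDK8, with HIF1A-null between shCDK8 and shNT.

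The largest normoxia differences overlapped with these. TENM3 had 42.8 and 50.6 CPM in HIF1A-null and 0.251 and 0.236 CPM in shCDK8 in normoxia (7.57 ± 0.25), and NRG1 had 0.0252 and 0.0751 against 76.3 and 103.8 CPM (-10.70 ± 0.38). MYBPH, a myosin-binding protein, was high in normoxic HIF1A-null cells alone, at 48 and 49.2 against 0.251 and 0.147 CPM (7.94 ± 0.33), and stood at 2.83 and 2.34 CPM in their hypoxia libraries. GRIN2B, a glutamate receptor subunit, was lower in HIF1A-null in normoxia (-6.83 ± 0.34) and in hypoxia (-5.88 ± 0.33).

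Other genes separated the lines through the response to hypoxia. CXCR4, the receptor of the chemokine CXCL12, had 0.149 and 0.357 CPM in HIF1A-null and 7.27 and 8.02 CPM in shCDK8 hypoxia libraries. In normoxia both lines were low, at 0.48 and 0.601 against 0.359 and 0.501 CPM. The hypoxia response of HIF1A-null minus that of shCDK8 was -5.18 ± 0.66 (adjusted p = 0.000203). EGLN3 and PFKFB4 gave response differences of -4.62 ± 0.29 and -3.67 ± 0.20. C4orf47 had 0.223 and 0.552 CPM in HIF1A-null and 8.7 and 9.74 CPM in shCDK8 hypoxia libraries, beside 8.04 and 8.96 CPM in shNT. Its log2 fold change in hypoxia was -4.53 ± 0.36, and its response difference was -3.58. In the other direction, the response was larger in HIF1A-null for DDIT3 (3.74 ± 0.41), TSC22D3 (3.46 ± 0.33), INSIG1 (3.10 ± 0.29) and HMGCS1 (2.92 ± 0.25). Hypoxia changed HMGCS1 by 2.96 ± 0.18 in HIF1A-null cells and by 0.05 ± 0.17 in shCDK8 cells, the second of which did not pass the test.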

How the data were processed

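The libraries were made from poly(A) RNA with the Ion Total RNA-seq v2 kit and read on an Ion Torrent Proton sequencer, per the labels. The authors deposited raw read counts per gene symbol in a single table with 16 library columns. The tools in the submitters' processing notes are GSNAP 2013-10-28 and HTSeq 0.5.4p5, beside DESeq 1.14.0 under R 3.0.3, on the build hg19/GRCh37. The gene annotation, the strand setting and the read filters are not given in the sources used here, so counts of overlapping, antisense and near-identical genes are uncertain. Reads carried no molecular identifiers, so intervals and floors cover counting error only.

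The count test was the quasi-likelihood test of edgeR 4.0.16 (R 4.3.3). Its filter by group (minimum count 10, minimum total 15) kept 15520 of 23669 genes (65.6%). All 16 libraries, shTIP60 included, entered a robust quasi-likelihood fit with TMM factors and 1 coefficient per group. It had 8 residual degrees of freedom and a common BCV of 0.132. The spread was thus shared with lines that are not compared here. Libraries A and B correlated at 0.9969 in normoxia and 0.9973 in hypoxia for shTIP60, and at 0.9913 and 0.9917 for HIF1A-null. Counts from a fit of only the groups compared are given below. The p-values were two-sided, adjusted by the Benjamini-Hochberg method over the genes tested, and read at 0.05. SE is the size of the log2 fold change divided by the root of the F statistic, and CPM used TMM factors. In counts simulated for the hypoxia comparison (15166 genes in that step), the fit found 32.1% of genes altered 1.5-fold. It found 89.8% of those altered 2-fold and 100% of those altered 4-fold, and 5 of its 146 calls were false. The simulated libraries were independent and few genes were altered. In the data 40.3% of genes differed, and differences of library A minus B correlated between groups (r from 0.143 to 0.648), so these rates need not carry over.

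The comparison, the 31 gene lists (572 distinct genes, 532 tested) and the alternatives were chosen with earlier results of these data known. Genes were named by a rule: the kinase module and hypoxia panel, the 12 highest and 12 lowest fold changes in hypoxia among called genes with a mean of at least 5 CPM in the higher group and no overlap between libraries, 6 and 6 in normoxia, 8 and 8 for the response, and up to 4 members per list with the smallest adjusted p. Clone identifiers, pseudogenes, antisense and small RNAs and clustered histone genes were passed over in the ranked parts. Other list members were named after their values were seen, to show how a list divided. Gene coordinates are from GENCODE v44 lifted to GRCh37 (14656 tested genes matched). Promoters are from RefSeq on GRCh38.p14 (11680 matched). Alternatives were DESeq2 1.42.0, RLE size factors, library totals, 2 other filters, a test against 1.5-fold, a replicate block, a fit of only the groups compared, and each library left out in turn. Values of 2 members of the sterol list are not reported here.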

Additional observations from a re-analysis of the deposited data

Results flagged for a closer look

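For 16 genes the hypoxia response, as the log2 change from normoxia, differed between HIF1A-null and shCDK8 by a direct test of the difference (edgeR, adjusted p below 0.05) and ranked at the ends of that comparison. The response was larger in HIF1A-null by 3.74 for DDIT3, 3.51 for NR4A3, 3.46 for TSC22D3, 3.19 for MSMO1, 3.10 for INSIG1, 3.06 for EID3, 2.92 for HMGCS1 and 2.83 for HIF1A. For HIF1A itself the reads rose within HIF1A-null cells and fell within shCDK8 cells. The value for EID3 rests on HIF1A-null hypoxia library B, at 8.15 CPM against 2.34 CPM in library A, and without that library it was 1.89 (adjusted p = 0.175). The EID3 call was also lost without HIF1A-null normoxia library B and without any 1 of the 4 shCDK8 libraries. At the other end the difference was -6.34 for GPR110, -5.18 for CXCR4, -4.62 for EGLN3, -4.41 for MYBPH, -4.23 for GPR146, -3.67 for PFKFB4, -3.58 for C4orf47 and -3.45 for ZNF425. The GPR110 value is a fitted one against a group with 0 counts and is no bound. MYBPH was far above shCDK8 in HIF1A-null normoxia libraries and lower in their hypoxia libraries, while EGLN3, CXCR4 and PFKFB4 were high in shCDK8 hypoxia libraries alone among these 4 groups.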

How the results depend on the processing

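Among called genes that the text describes or the ranking named, 0 changed the sign of the fold change under the alternatives run. Among those that did not pass the test, 12 changed sign in hypoxia in at least 1 setting (ADM, ATF5, CANX, CCNC, ELOVL6, EPCAM, HIF1A, KRT8, LDHB, MED13, PSPH and VHL), as did TSC22D3 in normoxia, and none of these passed the test with the opposite sign. ADM was at 0.08 and at -0.15 without HIF1A-null hypoxia library B, and CCNC at 0.08 and at -0.06 with library totals. Against 1.5-fold (glmTreat), 2350 genes differed between HIF1A-null and shCDK8 in hypoxia, 1126 in normoxia and 468 in response. With a replicate block the counts were 7673, 5134 and 3391, and with only the groups compared 5535, 2017 and 723. DESeq2 gave 6560, 4091 and 2429. Leaving out 1 library gave 4112 to 5914 genes in hypoxia, the lowest without shCDK8 hypoxia library A, and 2396 to 3391 in normoxia, the lowest without shCDK8 normoxia library B. In response the range was 755 to 2436, with 755 without shCDK8 hypoxia library A, 839 without HIF1A-null hypoxia library B and 1036 without shCDK8 normoxia library B. Of 152 genes described or ranked in hypoxia 130 were called, and 19 lost the call in at least 1 setting, 17 of them against 1.5-fold and 11 under another setting. Another 7 gained a call: CALR, DDIT4, LSS, VEGFA and XBP1 with the replicate block (adjusted p from 0.000701 to 0.0338), SLC16A1 with library totals (0.0238) and HIF1A without HIF1A-null library B. By DESeq2 CALR passed as well (adjusted p = 0.0275). Of 33 genes described or ranked in normoxia 29 were called, and 6 lost the call in at least 1 setting, each of them against 1.5-fold and 3 (HMGCS1, SLC7A11 and STC2) under another setting too. Of 16 genes named for the response EID3 lost its call. The block used the 2 series of library numbers in the column names, which the labels do not tie to a batch. Differences of library A minus B correlated between the hypoxia groups with r = 0.492 across genes, and with 0.143 to 0.648 over all 28 pairs of groups. The design holds 2 libraries per group, so an SD is imprecise.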

Other observations

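Protein-coding genes with 1 exon in the canonical transcript (334 tested) had a median log2 fold change of -0.28 for HIF1A-null over shCDK8 in hypoxia and 0.01 in normoxia. Those with more exons (13441) had 0.00 and -0.01. Of the single-exon genes 14.1% were higher and 31.1% lower in hypoxia, and of the others 19.3% and 21.7%. By chromosome, the hypoxia medians ran from -0.12 on chromosome 22 to 0.08 on chromosome 19, where 24.2% of 1072 genes were higher and 15.8% lower and the normoxia median was 0.23. No explanation of these values was tested.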
